A study of Mus musculus with 6 samples.

Results

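Cells sense interferons through paired receptor chains, each carrying a Janus kinase (JAK) on its inner side, and these genes were followed in mouse small-intestinal stem cells before and after interferon gamma (IFNg). The set was defined by gene symbol and holds 10 genes of the 23127 in the deposited table: the receptor chains Ifngr1, Ifngr2, Ifnar1, Ifnar2, Ifnlr1 and Il10rb, and the kinases Jak1, Jak2, Jak3 and Tyk2. All 10 were found, and all 10 were among the 16095 genes tested, whose scaled counts (reads divided by a size factor of the library) averaged 10 or more.

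The cells were sorted for high Lgr5-GFP, a reporter of crypt base stem cells, from the small intestine of C57BL/6 mice that carry the reporter. The 3 untreated libraries (untreated 5, 1 and 9, named by the last number of their titles) are labelled as not treated, and the 3 IFNg libraries (IFNg 6, 2 and 10) came from cells given 1 ng/ml IFNg for 1.5 h in medium that held EGF, R-spondin1 and Noggin. Whether the untreated cells were kept in that medium is not given in the labels, whose titles carry 1.5 for all libraries. Untreated 5 and IFNg 6 carry the title tag GFP1 and the other 4 libraries the tag GFP3, whose meaning the labels do not give. All groups share the reporter allele, and the labels give neither the age of the mice nor whether each library came from a separate animal. The libraries held 28508762 to 40224497 reads in genes. The stem cell gene Olfm4 was at 219689 to 266604 scaled counts over all 6, and all 11 listed stem cell markers were present. Their summed level was 330952 to 495748 in untreated and 338786 to 469521 in IFNg libraries. Log2 changes were above 0 for 5 of them and below 0 for 6, and 0 passed in limma over all 6 libraries. In the 4 GFP3 libraries limma called 3 of the 11 higher and 0 lower, where 8.27% of all genes were called higher. DESeq2 called 1 higher (2.84% of all genes), as did limma without untreated 5 (2.27%), and neither called any lower. Markers of other cell types were present too and are given further on.

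IFNg binds Ifngr1, which carries Jak1, and brings in Ifngr2, which carries Jak2. The kinases then activate STAT transcription factors, which bind gamma activated sites in DNA. Type I interferons use Ifnar1 with Tyk2 and Ifnar2 with Jak1, and type III interferons use Ifnlr1 and Il10rb, a receptor to which intestinal epithelium is known to respond. Il10rb is also a chain of the receptors for IL-10 and IL-22, and Jak3 works with the common gamma chain Il2rg, mostly in lymphocytes.

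The upstream sequences of the 3 members with every IFNg library above every untreated one are shown first. Of these, Ifnar2 alone passed the limma test of change given further on. Beside them is that of Irf1, a transcription factor gene that IFNg induces directly. Each is the 250 bases before a RefSeq start (GRCm38.p6, the build of mm10), 5′ to 3′ on the gene's strand, with matches to TTCNNNGAA in capitals. They lie at chr16:91372533-91372782 (plus strand) for Ifnar2, chr16:91546809-91547058 (plus) for Ifngr2, chr19:29251553-29251802 (plus) for Jak2 and chr11:53769764-53770013 (plus) for Irf1.
Ifnar2: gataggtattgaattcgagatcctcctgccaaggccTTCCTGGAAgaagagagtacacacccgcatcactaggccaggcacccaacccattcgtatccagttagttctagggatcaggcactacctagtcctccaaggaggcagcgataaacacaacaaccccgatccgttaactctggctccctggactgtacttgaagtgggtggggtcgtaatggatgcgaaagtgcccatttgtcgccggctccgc
Ifngr2: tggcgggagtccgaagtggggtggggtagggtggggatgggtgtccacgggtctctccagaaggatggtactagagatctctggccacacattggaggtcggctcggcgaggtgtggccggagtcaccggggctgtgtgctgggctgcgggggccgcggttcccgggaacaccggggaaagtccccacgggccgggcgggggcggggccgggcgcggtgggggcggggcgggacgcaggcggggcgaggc
Jak2: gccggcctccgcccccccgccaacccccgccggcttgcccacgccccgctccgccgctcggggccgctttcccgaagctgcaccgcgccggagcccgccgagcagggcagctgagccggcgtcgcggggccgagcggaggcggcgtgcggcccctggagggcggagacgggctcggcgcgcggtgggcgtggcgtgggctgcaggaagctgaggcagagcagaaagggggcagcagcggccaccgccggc
Irf1: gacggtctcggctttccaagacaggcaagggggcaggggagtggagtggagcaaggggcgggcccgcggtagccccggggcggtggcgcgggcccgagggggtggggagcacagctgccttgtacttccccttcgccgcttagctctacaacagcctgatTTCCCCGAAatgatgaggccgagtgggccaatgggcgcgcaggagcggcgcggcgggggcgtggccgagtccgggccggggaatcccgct

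Promoters of 9 of the 10 members were in the RefSeq table, all but Il10rb. TTCNNNGAA, the core of a gamma activated site, was searched on both strands, which is the same search since its fixed letters read alike on each. Among the members it matched only in Ifnar2, as TTCCTGGAA between 214 and 206 bases before the start. Irf1 has 2 windows in the table; the one printed held TTCCCCGAA between 90 and 82 bases before its start, and the other, at chr11:53770223-53770472, held no match. Of all 32817 promoter windows of that length, 7.01% held such a match, so 1 match among 9 windows is close to what the table holds in general. The core of an interferon stimulated response element, GAAA then any 2 bases then GAAA, on either strand, matched in no member and in 2.97% of all windows. Of 5 genes of a short IFNg response list with a promoter in the table, Irf1 had the first motif and Socs1, Gbp2, Cxcl10 and Irgm1 had the second. The member windows ran from 52.4% G and C in Jak3 to 80.8% in Jak2, which held 37 CpG steps, against a median of 52.4% and 6 CpG over all windows. Of the pathway genes described further on, only the STAT and Irf9 transducers and the inhibitors were searched. Among them Socs3 held the first motif, and Stat2 and Socs1 the second. Irf9, Stat3, Stat5b, Stat6, Cish and Pias1 held neither. The other receptors, Il15ra among them, and the chromosome 16 neighbours were not searched. A match describes the letters only, and binding was not measured.

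In untreated cells the 2 chains of the IFNg receptor stood far apart. Per kilobase of summed exon length (GENCODE M21), Ifngr1 was at 8582 ± 3398 scaled counts (SD, n = 3), the highest of the 10 and at the 99.0th percentile of tested genes. Jak1, the kinase that all 3 interferon receptor types use, followed at 1580 ± 505 (92.5th percentile). Ifngr2 was next at 437 ± 317 (76.0th percentile). The libraries of these 3 genes did not overlap, so the signalling chain of the IFNg receptor was below its ligand-binding chain in each untreated library.

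The middle of the order was not resolved. Ifnar1 was at 309 ± 83.3 scaled counts per kilobase, Tyk2 at 268 ± 102 and Il10rb at 259 ± 54.1, and from Ifngr2 down to Ifnlr1 (158 ± 38.7) each neighbour overlapped the next. Jak2, the kinase of Ifngr2, was at 116 ± 11.2, near the median of tested genes of 103, and lay below Ifnlr1 with no overlap. Ifnar2 (71.3 ± 22.9) and Jak3 (69.8 ± 33.3) were the lowest, overlapped each other and stood at the 43.3rd and 43.0th percentiles. With the longest transcript as length, Ifnar1 (470 scaled counts per kilobase) came before Ifngr2 and Jak3 before Ifnar2, while Ifngr1 and Jak1 stayed first and second.

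**Figure D1:**
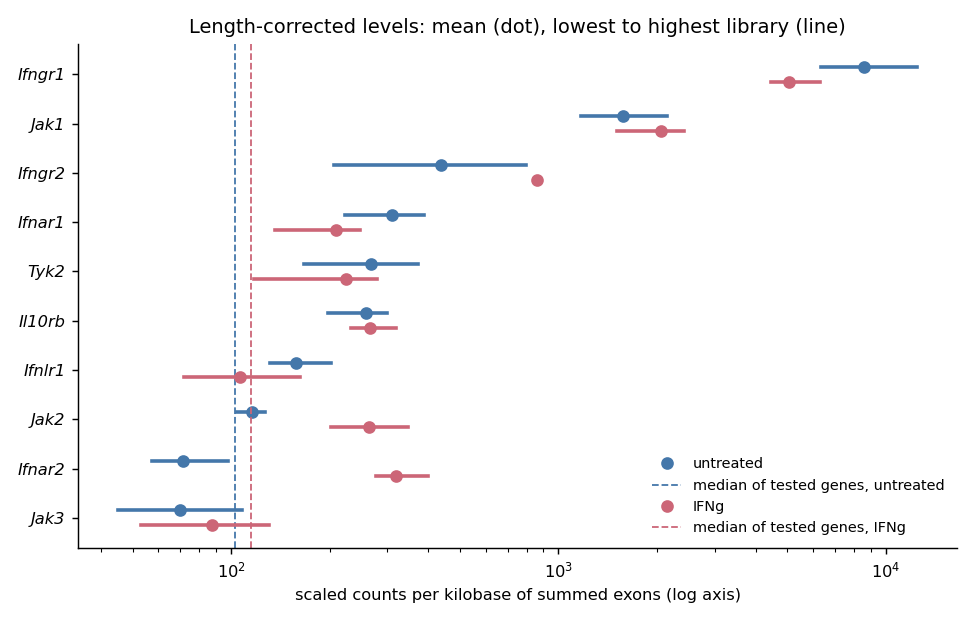
Scaled counts per kilobase of summed exons on a log axis for each member, with dots for group means, lines from the lowest to the highest of 3 libraries, and dashed lines for the median of tested genes. Ifngr1 and Jak1 lead in both groups, and Ifnar2 moves up the order from 71.3 to 320.

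After IFNg, per kilobase of summed exons, the order changed below the third place. Ifngr1 (5078 ± 1070 scaled counts per kilobase), Jak1 (2064 ± 484) and Ifngr2 (862 ± 18.1) again led without overlap. Ifnar2 came next at 320 ± 68.6 and overlapped Il10rb (265 ± 47.4), which overlapped Jak2 (265 ± 74.1). Every further neighbour down to Jak3 (87.5 ± 39.8) overlapped the next. With the longest transcript as length, Ifngr2 (876) followed Jak1, the place Ifnar1 held before treatment, and Il10rb (361) came before Ifnar2 (349).

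Of the 10 members, 1 passed the test of change, Ifnar2, which was higher after IFNg. The test was limma on log2(scaled count + 1), with Benjamini-Hochberg adjustment over all tested genes, and it called 0.416% of genes higher and 0.0124% lower. EdgeR on the recovered reads also called 1 member higher, against 0.36% of all genes, and DESeq2 called 2, against 2.84%. No member was called lower in limma, edgeR or DESeq2, where edgeR called 0.0124% and DESeq2 0.0497% of all genes lower. With the pairs of libraries as a block, limma called 1 member higher and 0 lower, against 0.46% and 0.00621% of all genes. In the 4 GFP3 libraries it called 2 higher and 0 lower (8.27% and 0.0746% of all genes), and without untreated 5 it called 2 and 0 (2.27% and 0.0186%). At an unadjusted p under 0.05 limma had 3 members higher and 0 lower, against 8.46% and 0.758% of all genes. By the same measure edgeR had 2 higher and 1 lower (8.23% and 1.07% of all genes), and DESeq2 had 3 and 1 (10.5% and 1.11%). With the block limma had 3 and 3 (9.17% and 3.98% of all genes), the lower ones being Ifngr1, Ifnar1 and Ifnlr1. Log2 changes were above 0 for 6 members and below 0 for 4, with a median of 0.18, where the median of all tested genes was -0.08. The groups did not overlap for 3 members above (Ifnar2, Ifngr2 and Jak2) and 1 below (Ifngr1), where 8.13% of tested genes lay fully above and 5.06% fully below.

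**Figure D2:**
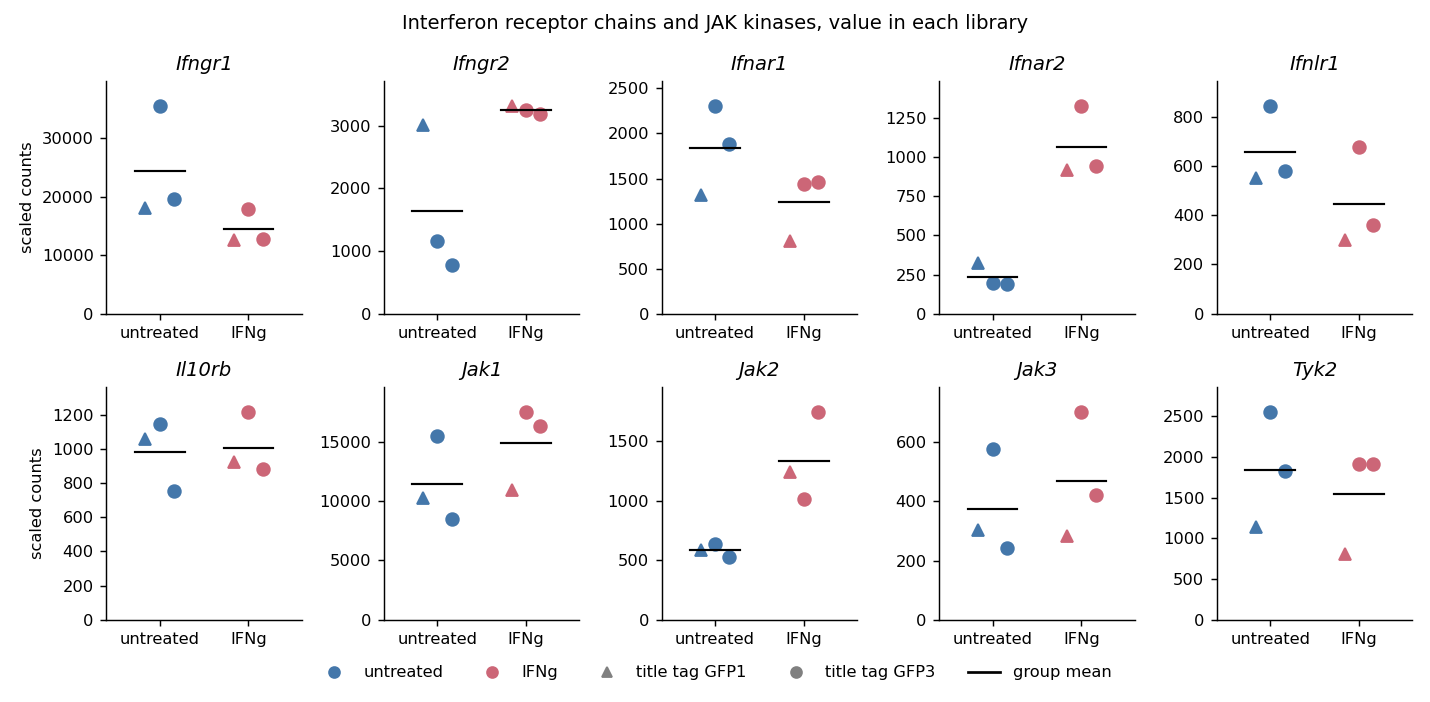
Scaled counts of each member (vertical axes from 0, scaled separately) in untreated (blue) and IFNg (red) libraries, with triangles for tag GFP1, circles for GFP3 and bars for group means. Ifnar2, Ifngr2 and Jak2 have every IFNg library above every untreated one, and Ifngr1 has every one below.

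Ifngr1, the chain that binds IFNg (mm10 chromosome 10, 19591949 to 19610229, plus strand), was at 18083, 35568 and 19652 scaled counts in untreated 5, 1 and 9. After IFNg it was at 12670, 17977 and 12726 in libraries 6, 2 and 10. The highest IFNg library was just under the lowest untreated one, so the groups met without overlapping. The log2 change was -0.71 (95% interval -1.44 to 0.02, limma adjusted p = 0.561), and it was below 0 in each of the 3 pairs of neighbouring title numbers (5 with 6, 1 with 2, 9 with 10). Without untreated 1, the highest library, it was -0.40.

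Ifngr2, the chain that carries Jak2 (chromosome 16, 91547072 to 91565623, plus strand), was at 3004, 1155 and 776 scaled counts in untreated 5, 1 and 9. After IFNg it was at 3316, 3251 and 3180 in libraries 6, 2 and 10. The IFNg libraries were nearly alike (SD 68.1), and the untreated spread came from library 5, which stood close to the treated level. The mean was 1.97-fold higher with a log2 change of 1.22 (95% interval 0.20 to 2.24), which did not pass (limma adjusted p = 0.403). Without untreated 5 the log2 change was 1.78 (limma adjusted p = 0.0229), and in the 4 GFP3 libraries it was 1.76 (0.00640). Both settings leave out untreated 5, and they were the only 2 of 18 settings under which Ifngr2 passed. It did not pass in edgeR (adjusted p = 0.605), in DESeq2 (0.361) or in limma with the pairs as a block (0.354). Without untreated 9 the log2 change was 0.80 (limma adjusted p = 0.992).

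The change of Ifngr2 was not alike in the 3 pairs. Libraries 5 and 6, tagged GFP1, were apart by 0.14 on the log2 scale, and the GFP3 pairs by 1.49 and 2.03. The change was larger by 1.62 on the log2 scale in the GFP3 libraries than in the GFP1 pair. With 1 GFP1 library per group, the spread in a test between the tags comes from the GFP3 libraries alone. Such a test cannot decide whether the tags differ.

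Ifnar2 (chromosome 16, 91372783 to 91405589, plus strand), a type I interferon receptor chain also made as a soluble form, was at 326, 196 and 191 scaled counts in untreated 5, 1 and 9. After IFNg it was at 919, 1328 and 947 in libraries 6, 2 and 10. Every IFNg library was far above the highest untreated one. The mean rose 4.48-fold from 237 ± 76.4 to 1065 ± 228 (SD, n = 3), with a log2 change of 2.18 ± 0.327 (SE; 95% interval 1.44 to 2.92; limma adjusted p = 0.0284). It was higher in 3 of 3 pairs, by 1.50, 2.75 and 2.31 on the log2 scale. It passed under 12 of 18 settings, with adjusted p from 9.77e-08 to 0.207. The call was lost without untreated 1 (limma adjusted p = 0.139), untreated 9 (0.149), IFNg 6 (0.0504), IFNg 2 (0.207) or IFNg 10 (0.104), where the log2 change stayed between 2.02 and 2.28. Gene counts do not separate the soluble from the membrane form.

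Ifnar1, the partner chain that carries Tyk2 (chromosome 16, 91485238 to 91507441, plus strand), was at 1320, 2306 and 1888 scaled counts in untreated 5, 1 and 9. With IFNg it stood at 811, 1442 and 1467 in libraries 6, 2 and 10. It was lower in each pair, but untreated 5 lay among the IFNg libraries. The log2 change was -0.58 (95% interval -1.35 to 0.19, limma adjusted p = 0.750), so a fall to 0.393 of the untreated level or a rise of 1.14-fold lay within its interval.

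The chains of the type III receptor did not pass. Ifnlr1, which binds interferon lambda (chromosome 4, 135686287 to 135708181, plus strand), was at 551, 845 and 581 scaled counts in untreated 5, 1 and 9 and at 301, 680 and 359 in IFNg 6, 2 and 10. It was lower in each pair, and IFNg 2 stood above both lower untreated libraries (log2 change -0.63, 95% interval -1.47 to 0.22, limma adjusted p = 0.765). Il10rb (chromosome 16, 91406164 to 91425834, plus strand) was at 1059, 1143 and 752 in untreated 5, 1 and 9 and at 925, 1216 and 884 in IFNg 6, 2 and 10. Its groups overlapped in part, with untreated 9 the lowest and IFNg 2 the highest library, and the log2 change of 0.04 (95% interval -0.61 to 0.69) turned to -0.0027 with TMM scaling. A change of up to 1.62-fold therefore lay within the interval.

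Other partners of Il10rb were chosen after their values were seen. Il22ra1, its partner for IL-22, which acts on crypt cells, was at 184, 135 and 130 scaled counts in untreated 5, 1 and 9 and at 127, 97.4 and 106 in IFNg 6, 2 and 10. The IFNg libraries lay just below (log2 change -0.43, limma adjusted p = 0.868). Il10ra, its partner for IL-10, was at or near the lower limit, with 0 to 8.24 scaled counts over the 6 libraries, where 3 reads were worth 2.56 to 3.16.

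Genes of other cell types were measured beside these values, since the libraries are sorted bulk samples in which fewer cells of a type and less RNA per cell cannot be told apart. Lgr5 itself was at 2801 to 8499 scaled counts in untreated and 2484 to 5310 in IFNg libraries. Of 13 Paneth cell markers, 12 were in the table; all 12 had log2 changes below 0 and 0 passed in limma. Their summed level was 111677 to 372161 in untreated and 26713 to 208047 in IFNg libraries, with none at 0 in every library. The highest Paneth sum, 372161, was in untreated 9, where the stem cell marker sum was 442132. Summed levels over untreated and IFNg libraries were 12116 to 19138 and 11899 to 12593 for 10 of 10 enterocyte markers, and 65897 to 219580 and 74528 to 145537 for 12 of 12 goblet, enteroendocrine and tuft markers. For 9 of 11 stromal and endothelial markers they were 75.8 to 496 and 93.0 to 238, and no marker of these lists was at 0 in every library. The part of these cells in the lower values of Ifngr1, Ifnar1 and Ifnlr1 was not tested.

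**Figure D3:**
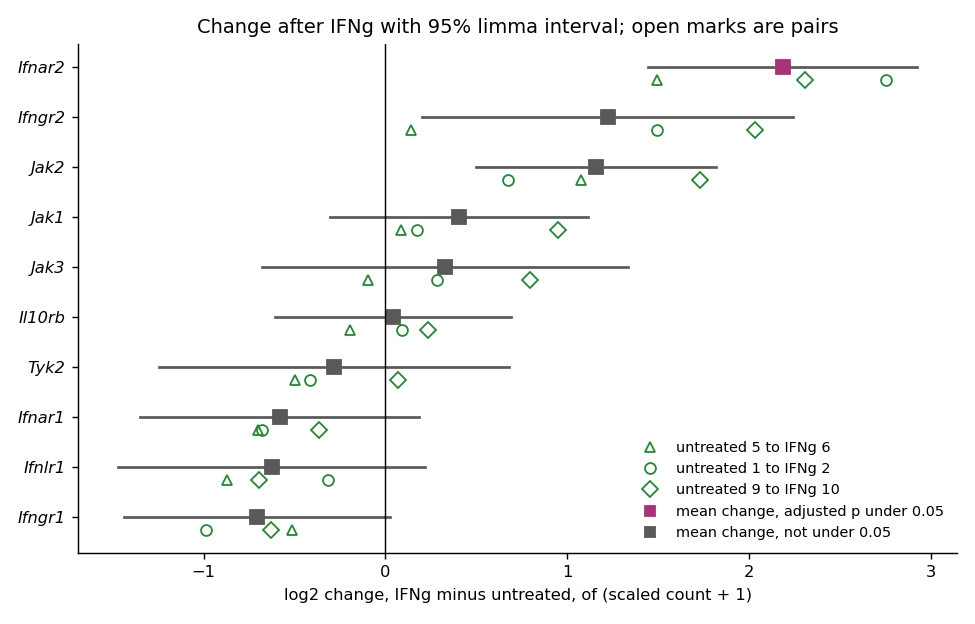
Log2 change after IFNg for each member with its 95% interval from limma (squares, purple where the adjusted p was under 0.05) and the change in each pair of libraries (open green marks). Only Ifnar2 is purple, at 2.18, and Ifngr2 has its GFP1 pair at 0.14, away from the other pairs.

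Of the kinases, Jak2 had the only log2 change above 1. Jak2 (chromosome 19, 29251828 to 29313080, plus strand) was at 588, 637 and 524 scaled counts in untreated 5, 1 and 9, a narrow range. With IFNg it stood at 1237, 1014 and 1742 in libraries 6, 2 and 10. All treated libraries lay above all untreated ones, in 3 of 3 pairs, and IFNg 10 was the highest. The mean went from 583 ± 56.4 to 1331 ± 373, a ratio of 2.28, with a log2 change of 1.16 (95% interval 0.50 to 1.82) that did not pass in limma (adjusted p = 0.280). It passed in DESeq2 (adjusted p = 0.00704) and not in edgeR (0.294).

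Jak1 (chromosome 4, 101152367 to 101265282, minus strand) was at 10291, 15499 and 8460 scaled counts in untreated 5, 1 and 9. With IFNg it stood at 10934, 17487 and 16339 in libraries 6, 2 and 10. The groups overlapped, and within each pair Jak1 was slightly to clearly higher (log2 0.09, 0.17 and 0.95). The log2 change of 0.40 (95% interval -0.31 to 1.11, limma adjusted p = 0.866) allows a rise of 2.17-fold.

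Tyk2, the kinase of Ifnar1 (chromosome 9, 21104068 to 21131243, minus strand), was at 1144, 2551 and 1823 scaled counts in untreated 5, 1 and 9 and at 809, 1910 and 1913 in IFNg 6, 2 and 10. The GFP1 library was the lowest of its group on both sides. The log2 change was -0.28 (95% interval -1.25 to 0.68, limma adjusted p = 0.922) and became 0.13 without IFNg 6.

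Jak3, the kinase of the common gamma chain (chromosome 8, 71676296 to 71690575, plus strand), was at 302, 576 and 242 scaled counts in untreated 5, 1 and 9 and at 283, 701 and 420 in IFNg 6, 2 and 10. Libraries 1 and 2 were the highest of their groups (log2 change 0.33, 95% interval -0.68 to 1.33, limma adjusted p = 0.914), and the sign turned without IFNg 2 (-0.013). Il2rg, the receptor chain that Jak3 binds, was at 0, 5.16 and 3.09 scaled counts in untreated 5, 1 and 9 and at 7.68, 10.6 and 3.51 in IFNg 6, 2 and 10. Jak3 transcripts were thus present where Il2rg was at or a few reads above the lower limit.

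Leukocyte markers were read beside Jak3, because lymphocytes are its main known site. Of 24 listed, 19 were in the table and none was at 0 in every library. Their summed level was 3613 to 5153 scaled counts in untreated and 3550 to 4546 in IFNg libraries, most of it from Lcp1, an actin-bundling protein gene. Without Lcp1 the sums were 321 to 372 and 311 to 392. Ptprc, the gene of the common leukocyte antigen CD45, was at 11.1 to 41.2 over all libraries, and the T cell gene Cd3e at 0 to 10.6. The part of leukocytes in the Jak3 level was not tested.

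Ratios of 2 members within a library are free of library scaling, and their change is free of gene length. Over the 5 ratios tested, the exact two-sided permutation test of 3 against 3 libraries cannot go below p = 0.1. The Ifnar2 to Ifnar1 log2 ratio was -2.02, -3.55 and -3.30 in untreated 5, 1 and 9. It was 0.18, -0.12 and -0.63 in IFNg 6, 2 and 10. This shift of 2.77, or 6.80-fold, put all IFNg libraries above all untreated ones (exact permutation p = 0.1, 0.125 adjusted over the 5 ratios) and had the same sign in each pair.

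The Ifngr2 to Ifngr1 log2 ratio was -2.59, -4.94 and -4.66 in untreated 5, 1 and 9. It was -1.93, -2.47 and -2.0 in IFNg 6, 2 and 10. It too lay higher in every IFNg library, by 1.93 or 3.81-fold (exact permutation p = 0.1, adjusted 0.125), and by 2.67 on the log2 scale without untreated 5. In both receptors the chain with fewer reads was higher after IFNg and the other lower in every pair, so the 2 read counts lay closer together.

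The kinase ratios were also set side by side. Jak2 to Tyk2 shifted by 1.44 on the log2 scale without overlap (exact permutation p = 0.1, adjusted 0.125), and was 0.61 in IFNg 6 against -0.91 in IFNg 2. The groups all but met, as untreated 5 was at -0.96. Jak2 to Jak1 shifted by 0.75 with overlap (exact permutation p = 0.2, adjusted 0.2).

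**Figure D4:**
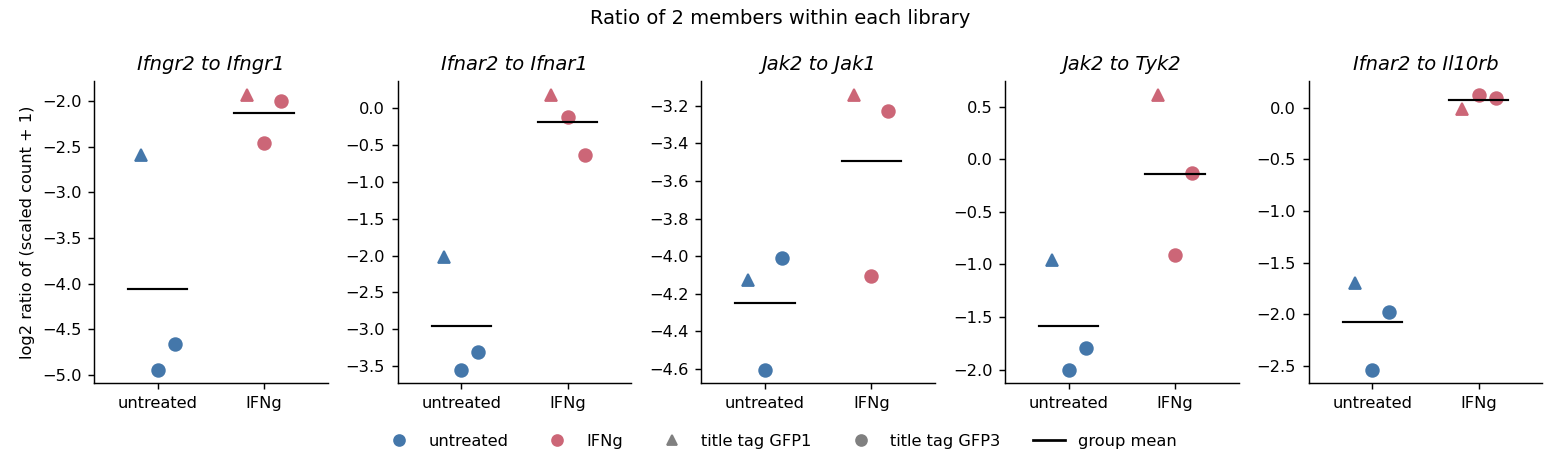
Log2 ratio of 2 members within each untreated (blue) and IFNg (red) library, with triangles for tag GFP1, circles for GFP3 and bars for group means. Every ratio but Jak2 to Jak1 has its IFNg libraries above its untreated ones, and untreated 5 is the highest untreated library for Ifngr2 to Ifngr1 at -2.59.

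Ifnar2, Il10rb, Ifnar1 and Ifngr2 lie in this order on the plus strand within 193 kb of chromosome 16, and their changes were unequal. Ifnar2 ends at 91405589 and Il10rb starts at 91406164, yet the Ifnar2 to Il10rb log2 ratio was -1.70, -2.54 and -1.97 in untreated 5, 1 and 9. It was -0.01, 0.13 and 0.10 in IFNg 6, 2 and 10. The shift of 2.14 showed no overlap (exact permutation p = 0.1, adjusted 0.125); this ratio was chosen after seeing the data. Of 9 listed neighbours around the cluster, 8 were in the table and tested, and 0 passed in limma, edgeR or DESeq2. In limma 1, Donson, a replication fork gene, was higher at an unadjusted p under 0.05, against 8.46% of all genes. In the GFP3 libraries 3 of the 8 were called higher, Donson, Itsn1 and Olig1, against 8.27% of all genes. Olig1 was at 0.860 and 0 scaled counts in untreated 1 and 9 and at 13.5 and 44.7 in IFNg 2 and 10. It was tested only because of its IFNg values (mean 21.1, untreated mean 2.74), so its call is no support for a change of the neighbours.

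The most abundant neighbours did not pass. Log2 changes were -0.36 for Son, an RNA splicing cofactor, -0.28 for Gart, a purine synthesis enzyme, -0.10 for Cryzl1 and -0.24 for Tmem50b, which lies next to Ifngr2 (limma adjusted p = 0.834 to 0.965). In GENCODE M21 a read-through gene, Gm21970, runs over Ifnar2 and Il10rb on the same strand. It shares 9.46% of the exon bases of Ifnar2 and 14.9% of those of Il10rb, and it is not among the rows analysed here. Insl3 likewise shares 7.55% of the Jak3 exon bases on the same strand. The antisense gene 1700084C06Rik covers 8.07% of those of Tyk2 and was at 24.1 and 15.9 scaled counts on average. Reads in such stretches cannot be assigned with certainty.

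**Figure D5:**
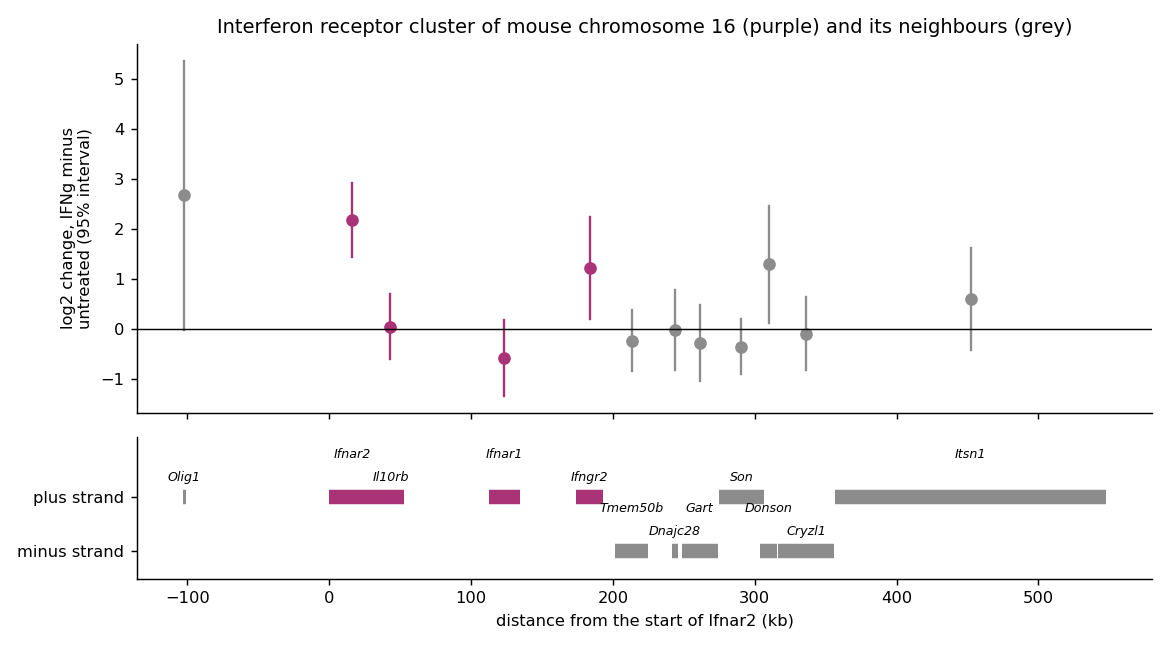
Log2 change with 95% limma interval (top) and gene positions by strand (bottom) against distance from the start of Ifnar2 in kb, for the 4 receptor genes (purple) and 8 neighbours (grey). Ifnar2 stands at 2.18 beside Il10rb at 0.04, and Olig1, far upstream and nearly without reads, has the widest interval.

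The genes that act directly below the receptors were taken from lists of pathway members. Of 7 tested STAT and Irf9 transducers, 2 rose in limma and none fell, against 0.416% and 0.0124% of all genes. Irf9, the DNA-binding partner of Stat2, was at 924, 995 and 885 scaled counts in untreated 5, 1 and 9. After IFNg it was at 4119, 4326 and 4119 in libraries 6, 2 and 10 (log2 change 2.16, limma adjusted p = 0.00321). The treated libraries were almost equal and far above the others. Stat2, which joins Irf9 downstream of the type I receptor, was at 123, 533 and 297 and then at 2302, 2548 and 2150 (log2 change 3.11, limma adjusted p = 0.0333). Stat2 missed the threshold with the pairs as a block (0.0691), in edgeR (0.0556), without limma's trended prior, without untreated 9 (0.120), and without IFNg 6 (0.0670), IFNg 2 (0.157) or IFNg 10 (0.119).

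Stat3, Stat6 and Stat5b did not pass in limma. Log2 changes were 1.47 for Stat3, which also carries IL-6 and IL-22 signals (limma adjusted p = 0.296), -0.20 for Stat6 and 0.02 for Stat5b. Stat3 passed in DESeq2 (adjusted p = 0.0499) and in the GFP3 libraries (limma adjusted p = 0.0411). Each of these fits called 4 of the 7 higher, against 2.84% of all genes in DESeq2 and 8.27% in the GFP3 libraries.

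Of 17 tested inhibitors of the pathway, 2 rose in limma, in edgeR and with the pairs as a block, and 4 in DESeq2. The shares of all genes called higher were 0.416% in limma, 0.36% in edgeR, 0.46% with the block and 2.84% in DESeq2. The limma calls were Socs1 and Socs3, which bind and block JAKs. Socs1 was at 59.0, 10.3 and 12.4 scaled counts in untreated 5, 1 and 9 and at 1705, 3544 and 6443 in IFNg 6, 2 and 10. Socs3 was at 1830, 1178 and 731 and then at 13212, 18505 and 14050. Every treated library was far above the untreated ones, and the log2 changes of 7.34 and 3.70 passed under all 18 settings, with limma adjusted p of 0.00124 and 0.00140. Cish, an inhibitor of Stat5 signalling, was at 580, 1266 and 2027 scaled counts in untreated 5, 1 and 9 and at 3440, 4932 and 4484 in IFNg 6, 2 and 10. Its groups did not overlap, and it did not pass in limma (log2 change 1.89, adjusted p = 0.203) but did in DESeq2 (0.00964). Log2 changes were -0.24 for Socs6, -0.01 for Ptpn2, a phosphatase of Jak1, and -0.44 for Pias1.

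Of 33 listed receptors that signal through the same kinases, 28 were in the table and 16 were tested. Limma called 1 of the 16 higher, against 0.416% of all genes. Il15ra, the chain that presents IL-15 to lymphocytes, was the 1 that rose in limma, from 315, 539 and 576 scaled counts in untreated 5, 1 and 9 to 1457, 2098 and 1940 in IFNg 6, 2 and 10. The groups stood well apart (3.84-fold, log2 change 1.97, limma adjusted p = 0.0446). It missed the threshold in edgeR (0.0589), without limma's trended prior (0.131) and without untreated 1 (0.129), untreated 9 (0.110), IFNg 6 (0.0508), IFNg 2 (0.292) or IFNg 10 (0.205). Log2 changes were 0.36 for Il13ra1, 0.86 for Il4ra, -0.13 for Prlr and -0.15 for Il6st, the most abundant of those that did not pass. Of 23 listed ligand genes only Ifnab was among the rows, at 1.03 to 11.6 scaled counts, and was not tested.

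Genes with the most similar course were sought among all 16095 tested genes, by the root mean square difference of log2 values over the 6 libraries after each gene's mean was removed. For Ifnar2 they were Ung, a DNA repair glycosylase (0.137), Parp9, a partner of the interferon-induced ligase Dtx3l (0.185), and Ly6c1 (0.189). These 3 were 4.05-fold, 3.57-fold and 4.22-fold higher after IFNg. For Ifngr2 they were Tsnax (0.0546), Tsen34 (0.0761) and Bspry (0.0876). Tsnax was at 1967, 765 and 542 scaled counts in untreated 5, 1 and 9 and at 2310, 2083 and 2015 in IFNg 6, 2 and 10. Its high value in untreated 5 follows from how it was chosen.

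For Jak2 the nearest were Pi4k2a (0.103), Kdelc2 (0.165) and Hunk (0.176), each highest in IFNg 10. For Ifngr1 they were Spryd3 (0.0849), Nat6 (0.0921) and Gprin3 (0.0947), each highest in untreated 1. For Jak1 they were Impdh1 (0.0705), Add1 (0.0749) and Arhgap26 (0.0772). With 6 libraries and this many genes, close matches are a description only. All were chosen for likeness over these same libraries, so their shared high libraries and fold changes follow from the choice.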

How the data were processed

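RNA was measured in 6 libraries, made per the labels' protocols from 2 ng of total RNA with SMART-Seq v4, a preparation that does not mark strand. The authors deposited a scaled-count signal for every gene, that is, reads over a size factor of the library. Per the submitters' processing notes the tools were STAR 2.5.0a, DESeq 1.22.1, HTSeq 0.5.3 and Cutadapt 1.6, with build mm10; annotation and strand setting of the counting were not stated there. Dividing by the smallest step gave whole reads for 100% of 138762 values (within 0.01 of a read), with 28508762 to 40224497 reads in genes, and 3 reads were worth 2.56 to 3.16 scaled counts. The 4 rows that name no gene (unaligned reads 8.83% to 15.4%, reads with several alignments 18.5% to 25.0%, outside genes 9.67% to 14.2%, ambiguous 0.948% to 1.20%) were left out.

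Values plus a pseudocount of 1 were put on the log2 scale and tested two-sided with limma 3.58.1 (R 4.3.3, trended and robust prior), for genes that averaged 10 or more. Recovered reads went into edgeR 4.0.16 and DESeq2 1.42.0, and scripts were tested on simulated data. Gene positions and lengths came from GENCODE M21, in which 99.6% of tested genes were matched. Members and lists were chosen with earlier results of these data known. All members were named, with every list gene that passed and at most 4 per list that did not; 1 list gene that the rule names is not reported here. As separate animals are not stated, p-values reflect only how these samples vary, which could be technical. Neighbouring title numbers within a tag were taken as pairs from the data: deviations from group means correlated at 0.252 or more within each pair (highest 0.404). All others were below 0, which is no separate support. Deviations within a group sum to 0, so a positive correlation with 1 library pushes the others below 0. Results with the pairs as a block rest on this choice, made from the same data. Intervals are limma's, and lower limits cover counting error only, as reads without molecular identifiers are not independent.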

Additional observations from a re-analysis of the deposited data

How the results depend on the processing

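Ifnar2 kept its direction under every setting run, at 2.18 on the log2 scale without the trended and robust prior, where it did not pass (limma adjusted p = 0.0801), and from 2.02 to 2.43 with 1 library left out. Ifngr2 passed in the GFP3 libraries at 1.76 and ranged from 0.80 to 1.78 with 1 library left out. Jak2 passed in DESeq2 at 1.23. The sign of Il10rb turned with TMM scaling (-0.0027) and in edgeR (-0.0053), and with 1 library left out it ranged from -0.14 to 0.16. Jak3 ranged from -0.013 to 0.69 and Tyk2 from -0.59 to 0.13. Members called higher numbered 0 without the trended and robust prior. They numbered 2 in the GFP3 libraries and in DESeq2, and 0 to 2 with 1 library left out. With the pairs as a block the call of Ifnar2 stood (adjusted p = 0.0446), and no member's call changed. Of all genes, 108 were higher with the tag as a term, 1331 in the GFP3 libraries, 457 in DESeq2 and 40 to 366 with 1 library left out. Lower genes numbered 1 with a pseudocount of 0.5, a filter at 50 or the block of pairs, 12 in the GFP3 libraries, 8 in DESeq2 and 1 to 3 with 1 library left out. Calls among STAT and Irf9 transducers were 1 without the trended and robust prior, with the block of pairs and in edgeR. They were 4 in the GFP3 libraries and DESeq2, and 1 to 2 with 1 library left out. Calls among the inhibitors were 5 in the GFP3 libraries and 4 in DESeq2. Calls among other receptors were 0 without the trended and robust prior and in edgeR. They were 2 in the GFP3 libraries and DESeq2, and 0 to 1 with 1 library left out. Calls among the 8 tested chromosome 16 neighbours were 3 in the GFP3 libraries, against 8.27% of all genes. They include Olig1, which was nearly without reads in the untreated libraries. The causes were not tested. No ratio changed its direction under the settings run. Of the members that did not pass, Il10rb alone had a 95% limma interval within 2-fold either way without the block. With it Jak1 (0.917 to 1.91), Jak3 (0.810 to 1.94) and Tyk2 (0.588 to 1.15) did too, and the fold intervals of Ifngr1 (0.456 to 0.822), Ifnar1 (0.490 to 0.913) and Ifnlr1 (0.444 to 0.946) lay below 1, with limma adjusted p of 0.317, 0.354 and 0.362.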
